A study of Mus musculus with 6 samples.

Results

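The 4 genes Sh2d6, Cdsn, Angptl6 and Pdzd7 were taken by name from a table of 22740 protein-coding genes, and were chosen by their measured fall in counts in mouse melanoma cells treated with CX5461, among the largest of all genes. All 4 were found in the table and all 4 passed the filter on low counts, which left 12198 genes for the test. The samples were cells of B16, an established mouse melanoma line labelled BRAFV600E-negative, kept for 3 days in either CX5461 at 1 uM or its vehicle DMSO, with 3 samples in each group. CX5461 is a small molecule known to inhibit transcription of the ribosomal RNA genes by RNA polymerase I and to bind G-quadruplex DNA. All groups shared the same line, genotype and medium, and the sources used here do not say whether the samples of a group came from separate cultures, so p-values measure the spread between these samples, which may be technical. Since the fall with CX5461 chose the 4 genes, their own changes are given as a description with no test, and tests are given for their neighbours on the chromosome and for other genes of their families.

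The 4 genes encode proteins of unlike kinds. Sh2d6 encodes a protein with an SH2 domain, the module that binds phosphorylated tyrosine, and is related to the adaptors BLNK and SLP-76 of immune receptor signalling. Cdsn encodes corneodesmosin, a secreted adhesion protein of the corneodesmosomes that hold the dead outer cells of the skin together. Angptl6 encodes an angiopoietin-like protein, one of a family of secreted factors with a fibrinogen-like domain that act on vessels and on fat and sugar metabolism. Pdzd7 encodes a PDZ scaffold of the links between the stereocilia of inner ear hair cells, where it works with the Usher syndrome proteins whirlin and Adgrv1. Transcripts of genes such as these can be present in a cell line without the structure in which the protein is known.

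The genes lie on 4 different chromosomes (build GRCm38, GENCODE M21). Sh2d6 spans 72513641 to 72521707 on the minus strand of chromosome 6, and Cdsn spans 35552128 to 35557180 on the plus strand of chromosome 17. Angptl6 spans 20873808 to 20879727 on the minus strand of chromosome 9, and Pdzd7 spans 45026906 to 45045717 on the minus strand of chromosome 19. Their spans of 8.07, 5.05, 5.92 and 18.8 kb were all below the median of 24.2 kb over the tested genes that had a span. Their exonic lengths were 1690 bases for Sh2d6, 2678 for Cdsn, 1582 for Angptl6 and 4055 for Pdzd7, against a median of 4525.

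The stretches before the transcript starts are shown because the 4 genes were low in the same 3 libraries, and a reader may wish to see whether their promoters look alike. They are the 250 bases before the RefSeq start (GRCm38.p6), 5′ to 3′ on the gene's own strand, at chr6:72520037-72520286 for Sh2d6, chr17:35551878-35552127 for Cdsn, chr9:20879711-20879960 for Angptl6 and chr19:45045773-45046022 for Pdzd7. The RefSeq start of Sh2d6, at 72520036, is also a GENCODE transcript start and lies inside the GENCODE span of the gene. Of the 2 starts that RefSeq gives for Cdsn, the start that GENCODE also has was used. Capitals mark matches to the motifs listed next.
Sh2d6: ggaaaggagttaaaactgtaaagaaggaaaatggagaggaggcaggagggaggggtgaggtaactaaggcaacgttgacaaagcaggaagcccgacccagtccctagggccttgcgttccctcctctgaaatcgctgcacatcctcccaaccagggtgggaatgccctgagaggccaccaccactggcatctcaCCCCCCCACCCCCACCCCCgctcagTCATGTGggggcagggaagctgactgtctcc
Cdsn: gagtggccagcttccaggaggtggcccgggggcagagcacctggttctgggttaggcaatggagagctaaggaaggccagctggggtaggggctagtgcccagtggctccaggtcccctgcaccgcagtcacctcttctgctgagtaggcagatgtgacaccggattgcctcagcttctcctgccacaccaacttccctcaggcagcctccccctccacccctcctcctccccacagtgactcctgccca
Angptl6: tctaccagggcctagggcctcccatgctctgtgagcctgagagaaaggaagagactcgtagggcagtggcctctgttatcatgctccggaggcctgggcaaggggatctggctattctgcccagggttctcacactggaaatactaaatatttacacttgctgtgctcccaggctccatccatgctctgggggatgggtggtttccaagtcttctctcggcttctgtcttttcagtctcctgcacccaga
Pdzd7: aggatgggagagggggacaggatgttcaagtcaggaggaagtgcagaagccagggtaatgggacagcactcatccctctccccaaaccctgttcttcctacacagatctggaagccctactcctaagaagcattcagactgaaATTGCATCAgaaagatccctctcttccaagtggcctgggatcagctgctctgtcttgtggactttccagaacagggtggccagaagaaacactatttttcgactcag

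Motifs were searched on both strands and were chosen with the results known. TCATGTG, the E-box preferred by the melanocyte factor MITF, was found before Sh2d6, 31 to 25 bases from its start, and in 3.25% of 32851 RefSeq promoter windows of this length. The G-quadruplex pattern of 4 runs of at least 3 G, each 1 to 7 bases from the next, was also found before Sh2d6, on the opposite strand 56 to 38 bases from the start, where it reads as runs of C. It was found in 16.7% of the windows, it does not overlap the E-box, and its long first run of C serves as 2 of the runs. TGATGNAAT, the element bound by C/EBP and ATF factors in stress genes, was found before Pdzd7, on the opposite strand 107 to 99 bases from the start, and in 0.816% of the windows. None of the 4 windows held the E-box CACGTG (in 6.02% of all windows), the AP-1 site TGANTCA (in 6.75%) or the cAMP response element TGACGTCA (in 1.55%). The GC box GGGCGG (in 32.7% of all windows) and the TATA box TATAAA (in 12.4%) were not found in them either. No motif searched was found in more than 1 of the 4 windows, and none was found before Cdsn or Angptl6. Their GC content was 59.2% for Sh2d6, 64.0% for Cdsn, 54.8% for Angptl6 and 50.8% for Pdzd7, with a median of 52.4% over all windows.

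The 6 libraries held 17573990 to 22908309 counts. CX5461 replicate 2 lay apart from the other CX5461 libraries on the second principal component, which held 2.83% of the variance against 91.2% for the first, and the mitochondrially encoded genes took 2.70% to 3.40% of counts with CX5461 against 1.70% to 1.84% with DMSO. The melanocyte markers Mlana, Pmel, Tyr, Tyrp1, Dct, Sox10 and Mitf were all present, with a summed level of 22070 to 22919 CPM (counts scaled to a common library size) with DMSO and 28243 to 30545 CPM with CX5461. Over all tested genes, 37.2% were called higher and 36.5% lower with CX5461 at an adjusted p below 0.05, 73.7% in all (edgeR quasi-likelihood test, Benjamini-Hochberg adjustment over all tested genes). Changes are relative to the centre of all tested genes, whose median was -0.005 on the log2 scale.

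Sh2d6 was read 314, 332 and 327 times in DMSO replicates 1 to 3, and 16, 13 and 13 times in CX5461 replicates 1 to 3. On the scale of CPM, with library totals corrected by TMM factors, this was 17.2, 16.02 and 18.3 with DMSO and 0.720, 0.748 and 0.657 with CX5461. The 3 CX5461 libraries lay close together and far below the DMSO libraries, with no overlap. A lack of overlap alone was common: 37.9% of all tested genes were lower without overlap and 38.2% higher without overlap. The mean of Sh2d6 was 17.1 ± 1.12 CPM (SD, n = 3) with DMSO and 0.708 ± 0.0465 CPM with CX5461, so 4.13% of the DMSO level was left. The log2 change was -4.58 ± 0.15 (SE), a 24.0-fold fall and the largest of all tested genes. The 42 counts of Sh2d6 over the 3 CX5461 libraries have an exact 95% Poisson interval of 30.3 to 56.8, which covers counting error only. Their spread was smaller than counting error alone would give on average, with a chi-square of 0.0581 per degree of freedom.

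Cdsn was read 363, 392 and 334 times with DMSO and 25, 11 and 19 times with CX5461. In CPM the DMSO libraries held 19.8, 18.9 and 18.6 and the CX5461 libraries 1.13, 0.633 and 0.960. CX5461 replicate 2 was the lowest and replicate 1 the highest of the CX5461 libraries, and the groups were far apart. The mean fell from 19.1 ± 0.620 to 0.906 ± 0.251 CPM, a log2 change of -4.36 ± 0.15 and a 20.5-fold fall. The coefficient of variation was 27.7% in the CX5461 group and 3.24% in the DMSO group. With 55 counts of Cdsn in all with CX5461 (Poisson interval 41.4 to 71.6) this spread was near counting error, at a chi-square of 1.30 per degree of freedom. Without CX5461 replicate 2 the log2 change of Cdsn was -4.19, and without replicate 1 it was -4.56.

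Angptl6 was the most abundant of the 4, with 2441, 2666 and 2245 counts with DMSO and 227, 204 and 255 with CX5461. These were 133.3, 128.6 and 125.3 CPM with DMSO and 10.2, 11.7 and 12.9 CPM with CX5461. No library of one group came near the other. The mean fell from 129.1 ± 4.02 to 11.6 ± 1.34 CPM, a log2 change of -3.48 ± 0.07 and an 11.1-fold fall. Here the spread was larger than counting error alone would give on average. The chi-square per degree of freedom was 3.26 in the CX5461 group and 2.28 in the DMSO group. Each value rests on 3 libraries, and the excess was not tested. The standard error of Angptl6 was the smallest of the 4.

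Pdzd7 was read 251, 301 and 276 times with DMSO and 40, 28 and 29 times with CX5461. In CPM it held 13.7, 14.5 and 15.4 with DMSO and 1.80, 1.61 and 1.47 with CX5461, again without overlap. The mean fell from 14.5 ± 0.849 to 1.63 ± 0.168 CPM, a log2 change of -3.15 ± 0.13 and an 8.88-fold fall, which left 11.2% of the DMSO level. In samples of whole cultures, fewer cells with a transcript and less of it per cell cannot be told apart.

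**Figure D1:**
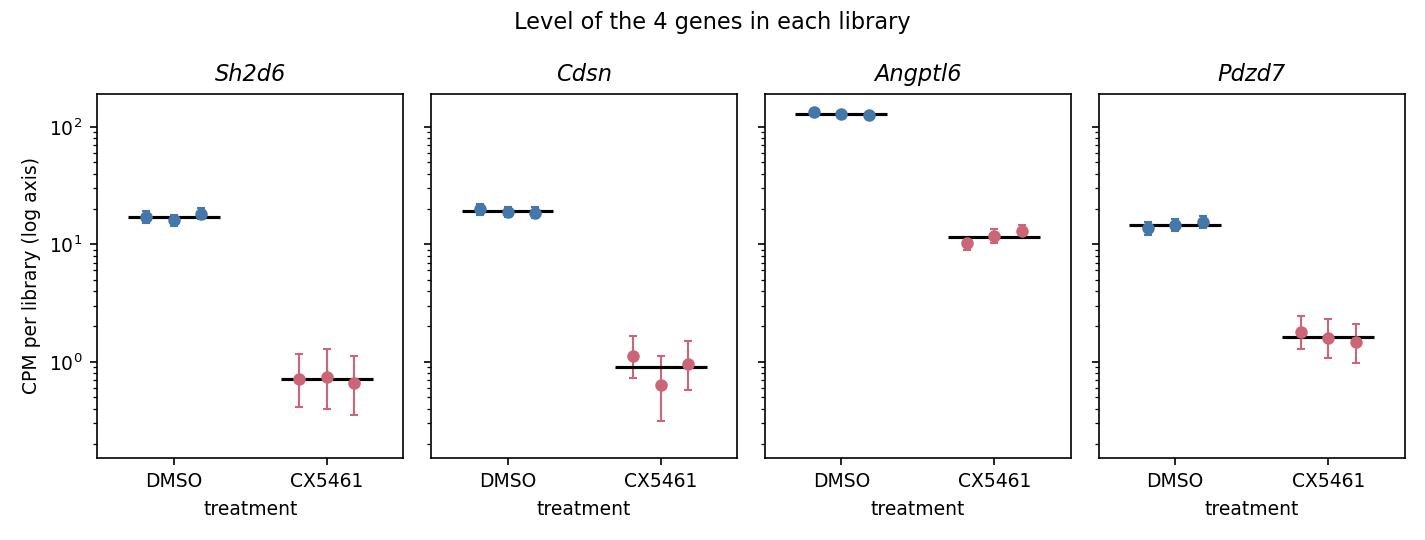
CPM of Sh2d6, Cdsn, Angptl6 and Pdzd7 in each library on a log axis, with 3 DMSO (blue) and 3 CX5461 (red) libraries per gene, vertical bars for exact 95% Poisson intervals of each count and black lines for group means. In each panel the 3 CX5461 libraries sit below all 3 DMSO libraries, as they do for 37.9% of all tested genes. The CX5461 values run from 0.633 to 1.13 CPM for Cdsn and from 10.2 to 12.9 CPM for Angptl6.

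Among these 4 genes, chosen for their fall, the falls lay in 2 pairs. Other tested genes fell by amounts between the pairs: Akr1b7 at -4.32, Zfp459 at -4.09 and 1500002C15Rik at -3.93 (log2). Between single libraries, Sh2d6 was 21.4 to 27.8 times and Cdsn 16.6 to 31.3 times higher with DMSO, ranges that overlap. Angptl6 was 9.72 to 13.0 times and Pdzd7 7.61 to 10.5 times higher, ranges that also overlap each other but not those of Sh2d6 and Cdsn. Levels between genes were compared per kilobase of exon. With DMSO, Angptl6 held 81.6 ± 2.54 CPM per kilobase, Sh2d6 10.1 ± 0.661, Cdsn 7.14 ± 0.231 and Pdzd7 3.59 ± 0.209, an order in which every step was larger than the spread between libraries. With CX5461, Angptl6 held 7.34 ± 0.845 CPM per kilobase, above Sh2d6 with 0.419 ± 0.0275, Pdzd7 with 0.401 ± 0.0415 and Cdsn with 0.338 ± 0.0937. The steps between the last 3 were within their spread. In rank among tested genes, Angptl6 went from percentile 95.9 of the level per kilobase with DMSO to percentile 48.1 with CX5461. Sh2d6, Cdsn and Pdzd7 went from percentiles 57.4, 47.9 and 31.6 to percentiles 6.50, 5.15 and 6.21.

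By the size of their fall the 4 genes ranked 1, 3, 7 and 9 of the 12198 tested. Only 16 tested genes, or 0.131%, were called lower with a log2 change below -3, and the 4 genes are among them by choice. Of the genes between them in rank, Akr1b7, an aldose reductase relative, changed by -4.32 ± 0.13 from a mean of 57.5 CPM with DMSO. The other 4 in that range, Cox6a2, Zfp459, 1500002C15Rik and Gm11435, had low DMSO means of 1.21, 0.959, 5.72 and 1.98 CPM and changes of -4.42, -4.09, -3.93 and -3.26. Just beyond Pdzd7, among genes with at least 5 CPM with DMSO, came Ppp1r15a at -3.11, Cxcl10 at -3.08, Paqr3 at -3.06, Hspb1 at -3.05 and Maff at -3.05. The step from Pdzd7 to Ppp1r15a is smaller than the standard error of Pdzd7, so the edge of the group does not fall at a gap in the values.

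**Figure D2:**
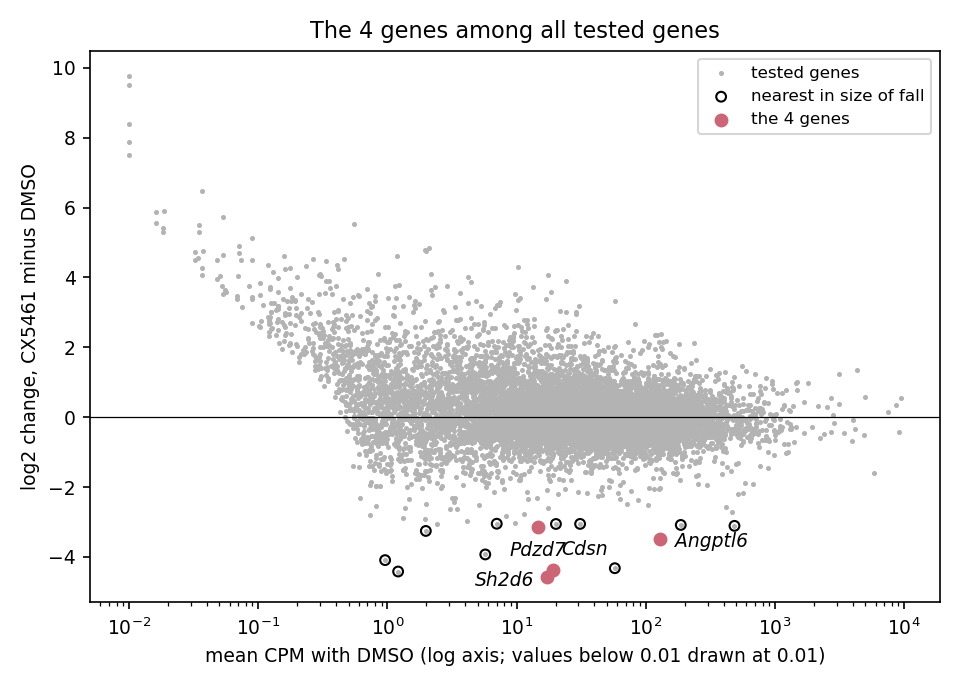
Log2 change (CX5461 minus DMSO) against the mean CPM with DMSO on a log axis for the 12198 tested genes (grey) and the 4 genes (red). Black circles mark 10 other genes, namely those with a larger fall than Pdzd7 and the next ones with at least 5 CPM with DMSO. The 4 genes sit at the lower edge of the cloud, from -4.58 for Sh2d6 to -3.15 for Pdzd7, at DMSO levels of 14.5 to 129.1 CPM.

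Profiles over the 6 libraries were compared as the distance between log2 CPM values centred on each gene's mean. The profile nearest to Sh2d6 was that of Akr1b7 (distance 0.51), then Cdsn (0.65) and 1500002C15Rik (1.05), and the nearest to Cdsn were Sh2d6, Akr1b7 (0.86) and 1500002C15Rik (1.09). Angptl6 was nearest to Ppp1r15a (0.57), which encodes a regulatory subunit of protein phosphatase 1 known from stress responses, then to the chemokine gene Cxcl10 (0.62) and the small heat shock protein gene Hspb1 (0.65), with Pdzd7 next (0.66). Pdzd7 was nearest to Ppp1r15a (0.16), Hspb1 (0.22) and Paqr3 (0.33), and Angptl6 was the 10th nearest. With 3 libraries a group, this distance mostly measures the size of the fall that chose these genes.

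The genes around each of the 4 were compared next, to ask how far the fall reached along the chromosome. Within 100 kb on either side, the table held 30 other genes, of which 23 had enough counts to be tested. With CX5461, 8 of the 23 were higher, 9 were lower and 6 did not pass, so 73.9% were called where 73.7% of all tested genes were. The share called lower was 39.1%, against 36.5% of all. The median log2 change of these neighbours was -0.11. Within 50 kb, 3 were higher and 6 lower, and the 4 lowered neighbours of Pdzd7 are among these 6. These counts are not set against the number tested there, so no share is drawn from them. Among the 23, the largest fall was 1.60-fold, for Kazald1 beside Pdzd7, and the largest rise was 3.51-fold, for Tcf19 beside Cdsn. How often other tested genes changed by as much is not given, so these values do not set the neighbours apart. The remaining 7 of the 30 had too few counts, and 2 of these had none in any library.

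Around Sh2d6, 3 of 6 tested neighbours rose, 2 fell and 1 did not pass. The nearest was Capg, which encodes an actin-capping protein and starts 22.7 kb away on the other strand. It rose from 109.8 ± 3.58 to 192.7 ± 3.82 CPM, a log2 change of 0.81 ± 0.05 (adjusted p = 2.986e-10). Mat2a, which makes the methyl donor S-adenosylmethionine and is the nearest on the other side, rose by 0.31 ± 0.05, and Retsat, the retinol saturase gene, by 0.52 ± 0.05. Tgoln1, of the trans-Golgi network, was the most lowered neighbour of Sh2d6, at -0.40 ± 0.04 (adjusted p = 6.434e-07). Ggcx, the vitamin K-dependent carboxylase gene, changed by -0.12 ± 0.04. Its call was lost without CX5461 replicate 3 (adjusted p = 0.06028), without DMSO replicate 2 (0.1017) and without DMSO replicate 3 (0.0554). Elmod3 held 27.6 ± 1.47 and 27.96 ± 1.06 CPM.

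Around Cdsn, 4 of 10 neighbours were tested, and 2 rose, 1 fell and 1 did not pass. Tcf19, which encodes a factor of the G1/S transition, rose from 11.8 ± 0.636 to 41.3 ± 1.33 CPM, a log2 change of 1.81 ± 0.07 (adjusted p = 7.936e-12). Cchcr1, a coiled-coil protein gene and the nearest tested neighbour on that side, held 38.1 ± 2.18 and 40.8 ± 2.89 CPM (adjusted p = 0.1882), and passed as higher without CX5461 replicate 2 (adjusted p = 0.04214). On the other side, Vars2, the mitochondrial valyl-tRNA synthetase gene, changed by -0.21 ± 0.06. Dpcr1, a mucin-like gene of low level, rose by 0.93 ± 0.39 (adjusted p = 0.04452). That call was lost without CX5461 replicate 1 (adjusted p = 0.05579) or 3 (0.1771), and without DMSO replicate 2 (0.2375) or 3 (0.05652). It was also lost with DESeq2 (0.1416) and with library totals only (0.06133). Psors1c2, which lies next to Cdsn and is a skin gene, was below the filter, at 0 to 0.0558 CPM with DMSO and 0.180 to 0.345 CPM with CX5461. It was called higher by DESeq2, which was run without that filter (3.85, adjusted p = 0.02016), and by edgeR without the filter (3.51, adjusted p = 0.004562).

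Around Angptl6, 3 of 6 tested neighbours rose, 2 fell and 1 did not pass. Ppan, a ribosome assembly gene that starts 8.45 kb from Angptl6 and is read away from it, fell from 75.0 ± 2.97 to 49.5 ± 2.39 CPM, at -0.60 ± 0.06 (adjusted p = 1.033e-07). Eif3g, a translation initiation factor subunit, changed by -0.41 ± 0.05. Farther out, the DNA methyltransferase gene Dnmt1 rose from 77.0 ± 0.799 to 221.8 ± 28.4 CPM, at 1.53 ± 0.07 (adjusted p = 4.354e-11), the receptor gene S1pr2 by 0.62 ± 0.05 and the collagen gene Col5a3 by 0.24 ± 0.05. A230050P20Rik, which meets Angptl6 tail to tail, held 14.9 ± 2.25 and 13.5 ± 0.246 CPM (adjusted p = 0.2225), and passed as lower without DMSO replicate 3 (-0.27, adjusted p = 0.02148).

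Around Pdzd7, 4 of 7 tested neighbours fell, 3 did not pass and none rose. Over all tested genes 36.5% were called lower and 37.2% higher. Counts from 7 genes are small, and a difference from these shares was not tested. No neighbour of Pdzd7 was higher at an unadjusted p below 0.05 either, nor with DESeq2 or limma-voom (0 by each). Sfxn3, a mitochondrial serine transporter relative, starts 1.79 kb from Pdzd7 and is read in the opposite direction. It fell from 49.2 ± 1.26 to 36.9 ± 3.09 CPM, at -0.41 ± 0.07 (adjusted p = 4.095e-05). Kazald1, an insulin-like growth factor binding protein relative, changed by -0.68 ± 0.14, and Peo1, the mitochondrial DNA helicase Twinkle, by -0.40 ± 0.06. Mrpl43, a mitochondrial ribosomal protein gene, changed by -0.19 ± 0.06, and it overlaps Peo1 on the other strand, so their reads cannot be assigned with certainty. Lzts2, whose end overlaps that of Pdzd7, held 231.4 ± 4.70 and 233.3 ± 4.59 CPM (adjusted p = 0.8049). Fam178a (-0.11, adjusted p = 0.05942) and Sema4g (-0.13, adjusted p = 0.1142) did not pass. Fam178a passed as lower without CX5461 replicate 1 (adjusted p = 0.04687) or 3 (0.03998), and Sema4g without DMSO replicate 3 (0.01124). With library totals only, both passed as lower (adjusted p = 0.004503 for Fam178a and 0.02008 for Sema4g), and Fam178a also did so with the gene-span offset (-0.22, adjusted p = 0.001256) and without the filter on low counts (0.04647).

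**Figure D3:**
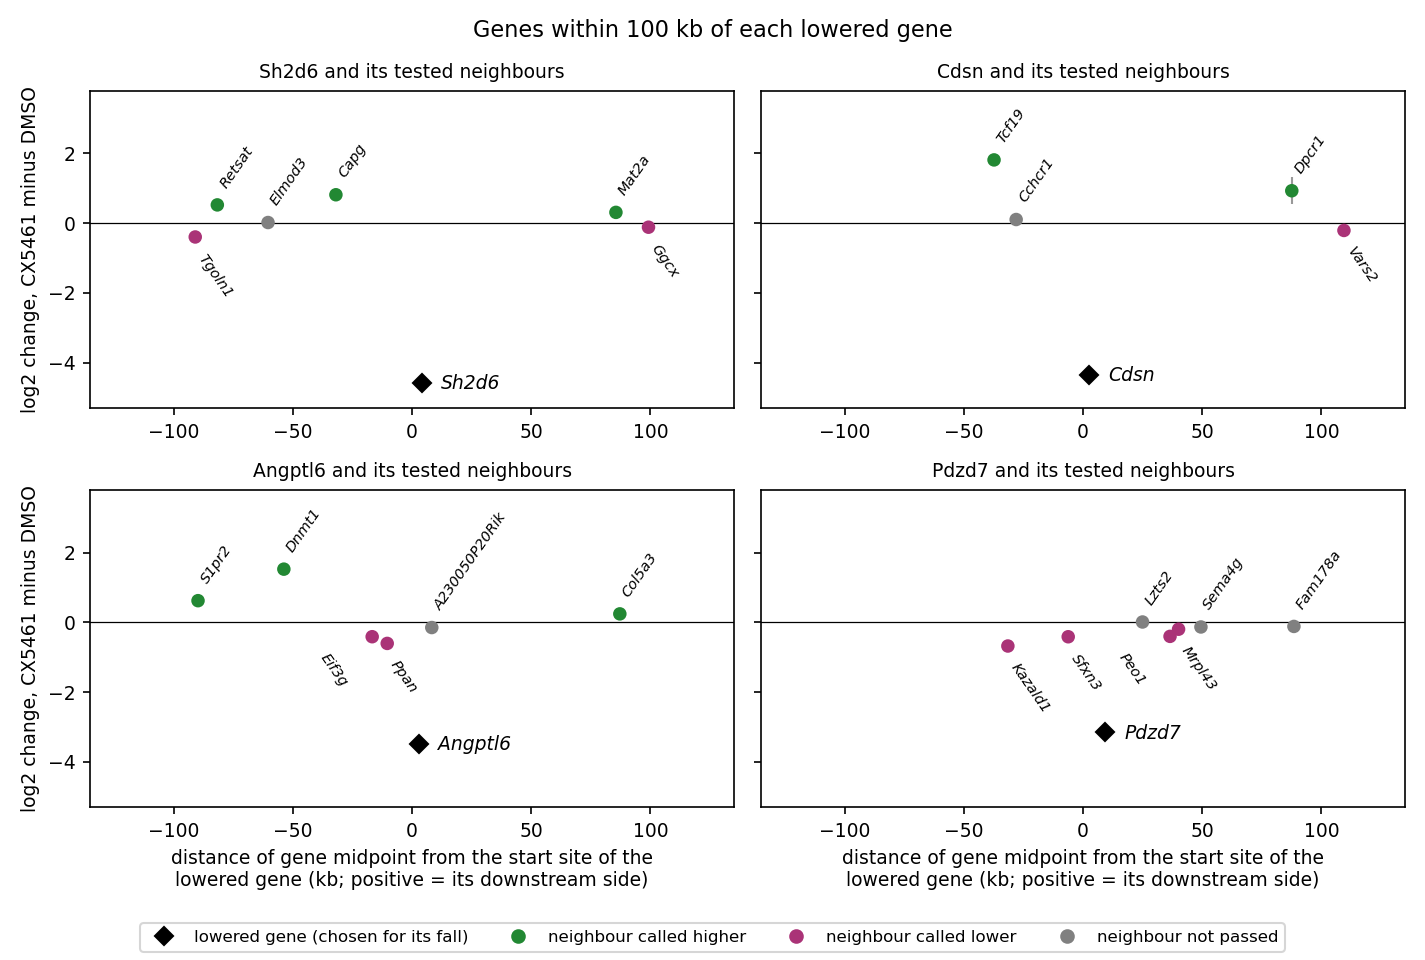
Log2 change (CX5461 minus DMSO, bars for the SE) of each tested gene within 100 kb of Sh2d6, Cdsn, Angptl6 and Pdzd7, against the distance of its midpoint from the start site of that gene, in kb, with the downstream side positive. The lowered genes (black diamonds) stand at -4.58, -4.36, -3.48 and -3.15, and the 23 neighbours lie between -0.68 and 1.81.

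Reads that the 4 genes could share with others were then looked for in the annotation. No stretch of 50 bases of any of the 4 occurred on the same strand in a transcript of another gene. On the opposite strand, 265 exonic bases of Angptl6, or 16.8% of its exonic length, lie in A230050P20Rik, and 206 bases of Pdzd7, or 5.08%, lie in Lzts2. Sh2d6 and Cdsn overlapped no other annotated gene. Whether the counting used strand is not given in the sources used here, so part of the reads of Angptl6 and Pdzd7 could belong to these partners. Neither partner passed the test.

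Other genes of each family or pathway were described from lists made by role, with the results of these data already known. These lists are compared with the shares over all tested genes, 37.2% higher and 36.5% lower, and a difference from these shares was not tested. Only 5 or 7 genes could be tested in the lists for Cdsn, Angptl6 and Pdzd7, so their counts are small. Of 41 names in the list of SH2 adaptors and the kinases, phospholipases and exchange factors they work with, 40 were in the table and 24 were tested. In this list 11 genes rose and 6 fell, while 7 did not pass, and the median change was 0.20 (log2). The closest relatives of Sh2d6, namely Blnk, Lcp2 (SLP-76) and Clnk, had no count in any of the 6 libraries, so each library's level was below that of 3 counts, 0.135 to 0.173 CPM. Among the others, the adaptor Grap rose from 2.07 ± 0.135 to 8.01 ± 0.304 CPM (1.95 ± 0.14, adjusted p = 5.758e-09), the exchange factor partner Bcar3 by 1.91 ± 0.17 and the neuronal adaptor Shc3 by 1.43 ± 0.28. The change of Bcar3 was 1.03 once the trend with gene span was taken out by an offset. The most lowered of the 24, the receptor adaptor Grb14, changed by -1.32 ± 0.14.

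For Cdsn, the list of desmosome and cornified envelope genes was mostly silent. Of 35 genes in the table only 5 were tested, and 16 had no count in any library, among them Lor, Ivl and the desmogleins Dsg1a, Dsg1b, Dsg1c and Dsg3. Of the 5 tested, 4 rose and 1 fell, with a median of 0.75, and counts from 5 genes are small. Pkp4, a plakophilin of cell junctions, rose from 72.3 ± 3.45 to 149.3 ± 3.66 CPM (1.05 ± 0.05, adjusted p = 4.823e-11), which was 0.31 with the gene-span offset. Cst6, a cysteine protease inhibitor of the skin, rose by 0.99 ± 0.07 and Perp, a desmosome membrane protein, by 0.75 ± 0.20. Pkp2 was called lower at -0.22 ± 0.09, a call lost without CX5461 replicate 3, DMSO replicate 2 or DMSO replicate 3 and with DESeq2.

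For Angptl6, genes of its list that could be tested were called higher or did not pass. The list holds lipase genes as well as relatives of Angptl6, and the tested Lipc, Lmf1 and Lmf2 are in its lipase part. Of 22 genes of the angiopoietin-like, angiopoietin and lipase list, 7 had enough counts for the test: 4 rose, 3 did not pass, and no gene fell. The median change was 0.56. None was lower at an unadjusted p below 0.05, nor with DESeq2 or limma-voom (0 by each). Under 3 of the 17 alternatives 1 gene of the list was called lower: the gene-span offset, library totals only and a library left out. Angpt2, angiopoietin 2, a ligand of the Tie2 receptor of vessels, held 4.04, 5.02 and 4.24 CPM with DMSO and 64.8, 62.1 and 68.7 CPM with CX5461, a 14.6-fold rise (3.87 ± 0.09, adjusted p = 1.976e-14). Angptl2 rose from 71.2 ± 1.59 to 128.5 ± 6.47 CPM (0.85 ± 0.05), and Angptl4, an inhibitor of lipoprotein lipase, by 1.98 ± 0.24. Per kilobase the DMSO level of Angptl6 was 81.6 CPM, against 11.3 ± 0.253 for Angptl2 and 1.20 ± 0.140 for Angpt2, and with CX5461 it was 7.34, against 20.4 ± 1.03 and 17.7 ± 0.903. With DMSO, Angptl6 was thus above both, and with CX5461 it was below both. Angptl7 had no count in any library.

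For Pdzd7, the partners of the stereocilia links were mostly below the filter. Of 24 genes of the Usher and stereocilia list, 7 were tested, of which 3 rose and 1 fell, while 3 did not pass. The median change was 0.51. Whrn, which encodes whirlin, held 35.6 ± 1.16 and 38.5 ± 2.92 CPM (adjusted p = 0.1441), whereas Gpr98 (the older name of Adgrv1) had a mean of 0.0322 CPM with DMSO and of 0.0697 CPM with CX5461. The myosin gene Myo7a, which also acts in pigment cells, rose from 341.6 ± 8.61 to 706.6 ± 58.0 CPM (1.05 ± 0.05, adjusted p = 1.341e-10), and the actin regulator Eps8 rose from 239.9 ± 3.12 to 543.6 ± 32.7 CPM (1.18 ± 0.05). With the gene-span offset the change of Eps8 was 0.52. Cib2, a calcium-binding partner of Myo7a, changed by -0.56 ± 0.10. Without CX5461 replicate 2, 5 of the list were called higher. Among other PDZ domain genes with like symbols, Pdzd8 changed by -0.76 and Pdzd4 by -0.25, both called lower, and Pdzd11 did not pass (adjusted p = 0.3773). Pdzd2 was called higher at 2.36, from a low mean of 0.325 CPM with DMSO to 1.65 CPM with CX5461. It spans 380 kb, and no value with the gene-span offset is given for it.

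**Figure D4:**
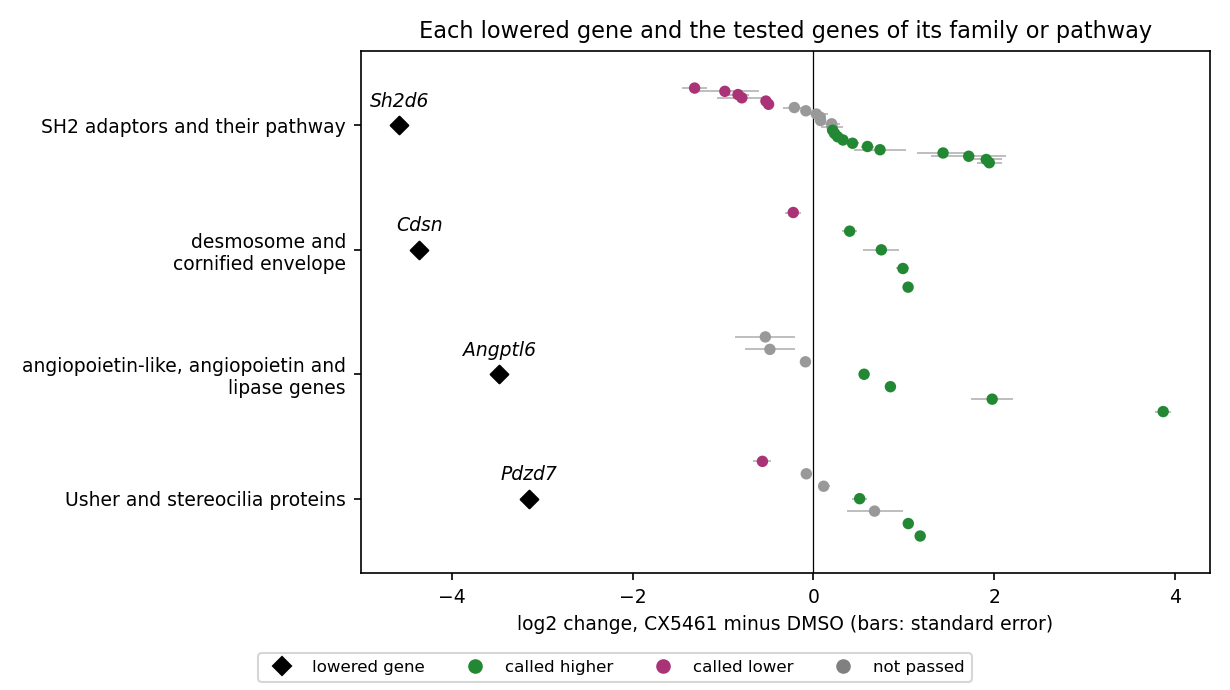
Log2 change (CX5461 minus DMSO, bars for the SE) of the tested genes of the 4 family or pathway lists, coloured by call, with Sh2d6, Cdsn, Angptl6 and Pdzd7 as black diamonds in the row of their own list. The diamonds stand at the left because these genes were chosen for their fall, and the tested list genes run from -1.32 for Grb14 to 3.87 for Angpt2.

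Markers of cell types in which the 4 genes are best known were examined as well. Of 11 tuft cell markers, chosen because Sh2d6 is known in tuft cells, 4 had no count in any library and Pou2f3, the defining factor, held 0 CPM with DMSO and at most 0.0450 CPM with CX5461. The summed level of the tuft cell list, 31.6 to 34.6 CPM with DMSO and 59.7 to 63.6 CPM with CX5461, came mostly from Dclk1 and Ptgs1. Of 10 keratinocyte markers, 7 had no count, among them Krt5, Krt1 and Krt10, and the sum of 9.94 to 11.3 CPM with DMSO and 9.70 to 10.6 CPM with CX5461 was nearly all Sfn. Of 9 hair cell markers, 4 had no count, Pou4f3 and Atoh1 among them, and the sum was 0.929 to 1.56 CPM with DMSO and 2.07 to 3.51 CPM with CX5461. The 9 hepatocyte markers summed to 0 to 0.273 CPM with DMSO and to 0.403 and 0.505 CPM in CX5461 replicates 2 and 3, but to 10.2 CPM in CX5461 replicate 1, where Alb held 6.66 CPM. Without that library the log2 changes of Sh2d6, Cdsn, Angptl6 and Pdzd7 were -4.61, -4.56, -3.39 and -3.25.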

How the data were processed

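RNA-seq of B16 cells gave 1 deposited table of raw counts per gene, made by the authors on GRCm38 (mm10) per the submitters' processing notes; for the aligner, counter, annotation and strand setting nothing is given in the sources used here. All 6 count columns were matched to samples by name. The 4 genes, the family lists, the marker lists and the motifs were chosen with earlier results of these data known. Counts were fitted with edgeR 4.0.16 (R 4.3.3; TMM, filterByExpr with a minimum count of 10, quasi-likelihood F test, 2-sided) on group alone, with Benjamini-Hochberg adjustment over 12198 genes; no p is given for the 4 genes. Standard errors are the size of the log2 change over the root of F. DESeq2 1.42.0, limma-voom 3.58.1, other scalings, filters and windows, a gene-span offset, thinned counts, a replicate block and each library left out were alternatives. The fit was tested on simulated data. Spans, exons and overlaps came from GENCODE M21, which matched 21842 of 22740 rows, and neighbours were genes overlapping the span of a gene widened by 100 kb. Named by rule were the nearest tested neighbours, the called neighbours that rose and fell most, the 3 nearest profiles (prior count 2) and up to 3 called genes per list by size of change with at least 1 CPM; other neighbours, family members, Grb14 and Pkp2 were named after their values were seen. Totals of 17573990 to 22908309 counts put 3 counts at 0.135 to 0.173 CPM; intervals cover counting error only.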

Additional observations from a re-analysis of the deposited data

How the results depend on the processing

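The log2 changes of Sh2d6, Cdsn, Angptl6 and Pdzd7 stayed negative under all 17 alternatives, from -4.66 to -4.41, -4.56 to -4.19, -3.57 to -3.39 and -3.25 to -3.08. The value of -4.41 for Sh2d6 came with a prior count of 2, which draws low counts together. With a window of 50 kb, 3 neighbours were higher and 6 lower, and with 250 kb, 15 were higher and 16 lower. These counts are given without the numbers tested in each window, so no share is drawn from them. The desmosome list had 0 lower genes with DESeq2 and at an adjusted p below 0.01, and 0 to 1 with a library left out. Without a filter on low counts, 7 genes of the angiopoietin list and 5 of the Usher list were higher and 2 of the Usher list lower. With the gene-span offset and with library totals only, 1 gene of the angiopoietin list and 2 of the Usher list were lower. With a library left out, 0 to 1 of the angiopoietin list were lower and 3 to 5 of the Usher list higher. Lzts2 turned to -0.00170 with the gene-span offset, -0.0616 with totals only and -0.00381 without the filter, and ran from -0.00332 to 0.0243 with a library left out. Elmod3 turned to -0.0194 with the gene-span offset and -0.0575 with totals only, and ran from -0.0133 to 0.0600 with a library left out. For 35 tested neighbours and named list genes together, Lzts2 and Elmod3 included, 530 of 559 alternatives kept direction and call. The causes were not tested. Deviations of same-numbered libraries correlated at 0.0364, 0.0037 and -0.0084. Values this small gave no sign that the numbers pair the samples, but cannot exclude it. With a replicate block the changes were -4.59 for Sh2d6, -4.37 for Cdsn, -3.48 for Angptl6 and -3.15 for Pdzd7, and among the neighbours the block ended the call of Ggcx (adjusted p = 0.0551). Depth limits genes near 3 counts a library.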
